A study of Mus musculus with 6 samples.

Results

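EphA receptors and ephrin-A ligands were examined in both tissue layers, epithelium and mesenchyme, of the embryonic mouse bladder neck and urethra. The members were 10 genes chosen by symbol, the 6 receptors Epha1, Epha2, Epha3, Epha4, Epha5 and Epha7 and the 4 ligands Efna1, Efna3, Efna4 and Efna5, out of 18193 genes with a probe set annotated to that gene alone. They carried 28 such probe sets, of which 23 lay above the filter on dim signals, and each gene was read from its brightest one, with the others as a check. All samples were wild-type FVB/N embryos at embryonic day 13 (Theiler stage 21) of unknown sex, not pooled. The bladder was cut at the ureters or, in another passage of the labels, just above them. The layers were parted with a needle after 20 minutes in trypsin at 1 mg/ml, and RNA was amplified in 2 rounds before hybridisation to Affymetrix mouse whole-genome arrays. Epithelium was measured on arrays numbered 1, 2 and 5 and mesenchyme on arrays numbered 1, 2 and 3. The question set by the labels is how the layers differ in gene expression.

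Eph receptors are the largest family of receptor tyrosine kinases, and they bind ephrins that are held on the membrane of a neighbouring cell. Class A receptors mainly bind ephrin-A ligands, which are anchored in the membrane by a glycolipid, and class B receptors mainly bind ephrin-B ligands, which span the membrane. Signals run both into the cell with the receptor and into the cell with the ligand. The outcome is often repulsion or the sorting of cells at tissue boundaries, and in nerves the guidance of growing axons.

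Levels below are normalized signals in array units, obtained by quantile normalization of log2(signal + 16). Differences are epithelium minus mesenchyme on that log2 scale with limma's standard error, so positive values mean more signal in epithelium, and adding 16 understates the change of dim genes. A difference was called when its Benjamini-Hochberg adjusted p over all genes tested was under 0.05. The median log2 difference of all tested genes was 0.12 with all 6 arrays and 0.02 without mesenchyme 1. Whether separate embryos gave the arrays is not stated by the labels, so p-values measure the spread between arrays, which may be technical. Array medians of the deposited signal lay between 126 and 254, and 3 arrays per layer limit the precision of every value.

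The array labelled mesenchyme 1 stood apart, and the tests of the members are given with and without it. Its correlation with mesenchyme 2 and 3 across genes, which are not independent replicates, was at most 0.784, against 0.981 between those. The summed signal of 6 markers of other organs, namely Alb, Ttr, Myh6, Cpb1, Sftpc and Flg, was 199915 on mesenchyme 1 and no more than 841 on any other array. The summed signal of 10 epithelial markers lay between 192545 and 234347 in epithelium, and it was 82230 for mesenchyme 1, 14373 for mesenchyme 2 and 2804 for mesenchyme 3. Of those markers 2 were called higher in epithelium with all arrays and all 10 without mesenchyme 1. The summed signal of 10 mesenchymal markers was 206306 to 256233 on the mesenchymal arrays and 32428 to 50554 on the epithelial ones, with 5 called higher in mesenchyme and 9 without mesenchyme 1. No marker signal was at 0 on any array.

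Epha1 and Epha2 were higher in epithelium and Epha5 was higher in mesenchyme, with and without mesenchyme 1. These were 3 of the 10 members, against 5.98% of all 13717 genes tested, 2 of them higher in epithelium (1.95% of all genes) and 1 higher in mesenchyme (4.03%). Without mesenchyme 1, 7 of 10 were called, where 14.5% of all genes were. At an unadjusted p under 0.05 these counts were 5 of 10 members with all arrays (19.5% of all genes) and 7 of 10 without mesenchyme 1 (26.4%). Without mesenchyme 1 Efna1 joined those higher in epithelium (3 members, 6.37% of all genes), and Epha3, Epha4 and Epha7 joined those higher in mesenchyme (4 members, 8.17%). Efna3, Efna4 and Efna5 were called in neither fit. The layers did not overlap for 4 members with all arrays, 3 of them higher in epithelium (15.5% of all genes) and 1 higher in mesenchyme (13.2%). Without mesenchyme 1 they did not overlap for 7, 3 higher in epithelium (23.1%) and 4 higher in mesenchyme (22.3%). All 10 members passed the filter on dim signals. The median size of the members' log2 difference, regardless of sign, was 1.43 with all arrays and 1.83 without mesenchyme 1, against 0.49 and 0.41 for all genes tested. Since these are bulk samples, fewer cells of a type and less RNA per cell cannot be told apart.

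**Figure D1:**
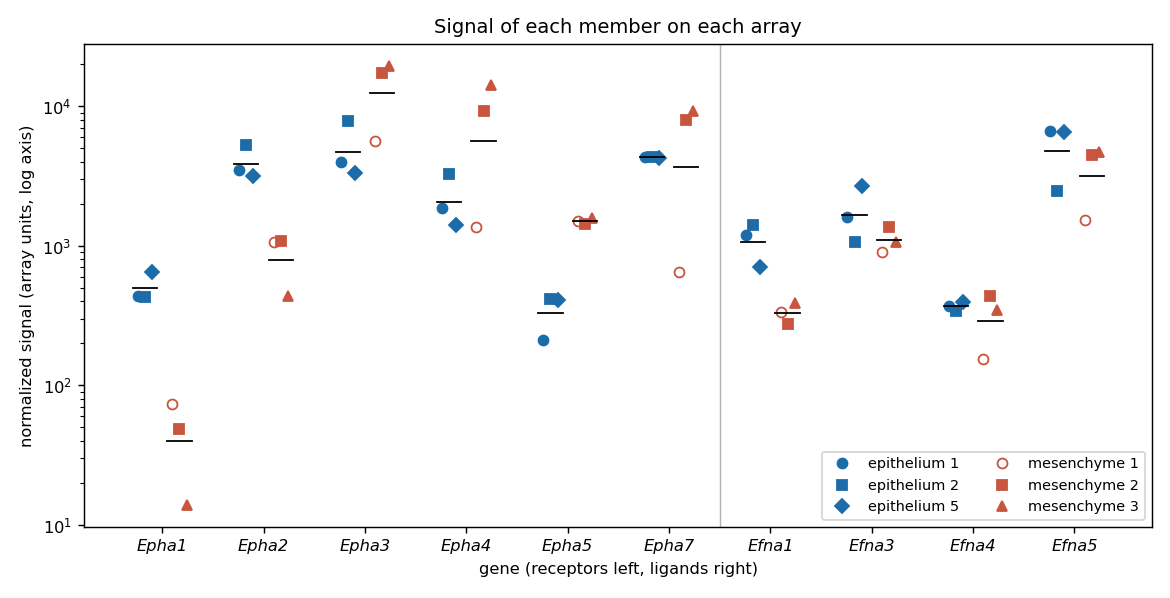
Normalized signal (array units, log axis) of the brightest probe set of each member on each array, with epithelium in blue, mesenchyme in red, mesenchyme 1 as an open circle and a bar at the mean on the log2(signal + 16) scale. Epha1, Epha2 and Efna1 lie higher on all epithelial arrays, Epha5 lies higher on all mesenchymal arrays, and Epha7 read 648 on mesenchyme 1 against 7984 and 9210 on mesenchyme 2 and 3.

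Promoter sequences are shown for the 3 receptors called with all arrays and without mesenchyme 1, Epha1 and Epha2 on the epithelial side and Epha5 on the mesenchymal side. They are the 250 bases before the gene's start on the gene's strand, 5′ to 3′, from RefSeq on build GRCm38.p6, whose table held windows for all 10 members. The windows are chr6:42373269-42373518 on the minus strand for Epha1, chr4:141300971-141301220 on the plus strand for Epha2 and chr5:84417383-84417632 on the minus strand for Epha5. Capitals mark CACCTG or its reverse complement CAGGTG, the E-box letters that Zeb and Snail repressors bind.
Epha1: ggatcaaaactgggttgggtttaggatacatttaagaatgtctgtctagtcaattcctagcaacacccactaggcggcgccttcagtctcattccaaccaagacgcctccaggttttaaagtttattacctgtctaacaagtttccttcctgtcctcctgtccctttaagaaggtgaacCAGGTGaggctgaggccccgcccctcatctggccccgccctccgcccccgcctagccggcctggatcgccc
Epha2: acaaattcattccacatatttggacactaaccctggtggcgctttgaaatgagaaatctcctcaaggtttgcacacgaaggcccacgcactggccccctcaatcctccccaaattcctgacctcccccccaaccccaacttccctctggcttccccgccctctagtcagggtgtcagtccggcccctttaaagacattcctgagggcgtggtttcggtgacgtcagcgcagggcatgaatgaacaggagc
Epha5: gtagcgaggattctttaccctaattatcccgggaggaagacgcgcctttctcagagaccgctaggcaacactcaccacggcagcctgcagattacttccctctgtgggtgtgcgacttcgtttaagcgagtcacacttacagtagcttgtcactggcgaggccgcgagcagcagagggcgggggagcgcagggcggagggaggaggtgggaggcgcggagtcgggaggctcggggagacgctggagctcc
Both strands were searched for CACCTG, for CCGGAA, the core of ETS factor sites, and for TGTTTAC, a forkhead motif. The members' windows held a single match in all, so no matches overlapped. The motif CACCTG stood in 1 of the 13 windows of the members, that of Epha1, 71 bases before the start, and in 17.2% of all 32851 windows of that length. CCGGAA (12.0% of all windows) and TGTTTAC (3.17%) stood in none of the members' windows, which says only that these letters are not there. The CG dinucleotide occurred 9 times in the windows of Epha1 and of Epha2 and 20 times in that of Epha5, and the median over all windows was 6. The ligand genes Efna1, Efna3 and Efna4 lie near each other, with all their windows on chromosome 3 between 89279646 and 89338278, and of these Efna1 alone was called, without mesenchyme 1.

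Of the receptors, Epha1 had the largest excess in epithelium. Epha1, the founding member of the family and a receptor known from epithelia, read 439, 429 and 652 on epithelium 1, 2 and 5 and 73.9, 48.6 and 13.9 on mesenchyme 1, 2 and 3. All epithelial arrays lay above all mesenchymal ones, and mesenchyme 3 was the lowest. The difference was 3.20 ± 0.546 SE, or 9.20-fold (adjusted p = 0.0188), and 3.55 ± 0.480, or 11.7-fold, without mesenchyme 1 (adjusted p = 0.00356). The size of the difference depended on the probe set. A second one, nearly as bright, read 185 to 281 on the epithelial arrays and 75.3 to 107 on the mesenchymal ones, a difference of 1.11 that was not called (adjusted p = 0.241 in a fit of all probe sets). When any 1 epithelial array was left out, or an offset of 1 was used, this second probe set became the brighter one and the call ended, at differences between 0.97 and 1.23. The call also ended without mesenchyme 2 (3.28, adjusted p = 0.0723) or mesenchyme 3 (2.73, adjusted p = 0.0531). Another probe set was below the filter, at 25.4 to 200 in epithelium and 7.82 to 23.7 in mesenchyme. With the mean of the 2 above the filter the difference was 2.16 (adjusted p = 0.0304).

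Epha2, the main receptor of ephrin-A1 and a receptor of epithelial cells, read 3489, 5244 and 3149 on epithelium 1, 2 and 5 and 1065, 1073 and 439 on mesenchyme 1, 2 and 3. The layers did not overlap, and mesenchyme 3 was again the lowest array. The difference was 2.26 ± 0.440, or 4.78-fold (adjusted p = 0.0292), and 2.52 ± 0.437, or 5.75-fold, without mesenchyme 1 (adjusted p = 0.00918). Leaving out any other array ended the call, with differences of 1.84 to 2.47 and adjusted p of 0.0686 to 0.127. Epha2 has 1 probe set, of the kind that can match several transcripts, so no second probe set checks it. On the brightest probe set of each of these receptors mesenchyme 3 lay below the other mesenchymal arrays, as it did for the summed epithelial markers given above. The other probe sets of Epha1 did not have this order. On mesenchyme 1, 2 and 3 the second one read 75.3, 107 and 105, and the one below the filter 7.82, 9.72 and 23.7. The part of the epithelial markers in the result was not tested.

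Efna1 was the ligand with the largest difference. Efna1, a ligand first found as a gene induced in endothelial cells by tumour necrosis factor, read 1185, 1405 and 707 on epithelium 1, 2 and 5 and 333, 273 and 388 on mesenchyme 1, 2 and 3. The layers did not overlap, and here mesenchyme 3 was the highest of its layer. With all arrays the difference of 1.64 ± 0.385 (3.12-fold) missed the threshold (adjusted p = 0.0544), and without mesenchyme 1 it was 1.71 ± 0.380 (3.27-fold) and was called (adjusted p = 0.0250). With all arrays Efna1 was also called when limma was run with no variance trend (adjusted p = 0.0475). Averaging of probe sets gave an adjusted p of 0.0425, but it left the difference at 1.64. Efna1 had 1 probe set above the filter, so this setting is no separate check of its values. Without mesenchyme 1 the call ended with median centring (1.59, adjusted p = 0.0959) and with averaged probe sets (1.49, adjusted p = 0.146). Its second probe set was below the filter and overlapped between the layers, with 26.6 to 564 in epithelium and 6 to 154 in mesenchyme.

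Epha5, a receptor known from the mapping of axons in the brain, had the largest excess in mesenchyme of the receptors with all arrays, and Epha4 had it without mesenchyme 1. Epha5 read 212, 416 and 409 on epithelium 1, 2 and 5 and 1496, 1428 and 1575 on mesenchyme 1, 2 and 3. The 3 mesenchymal arrays were close to each other, mesenchyme 1 included, and all lay above the epithelial ones. The difference was -2.12 ± 0.371, or 4.36-fold (adjusted p = 0.0201), and -2.19 ± 0.368, or 4.58-fold, without mesenchyme 1 (adjusted p = 0.00813). All 4 probe sets of Epha5 were above the filter and lower in epithelium, by -1.92 to -2.25 with all arrays, and 2 of them did not overlap between the layers. With their mean the difference was -2.08 and the call ended (adjusted p = 0.101). It also ended without epithelium 1 (adjusted p = 0.0946), epithelium 5 (0.0679), mesenchyme 2 (0.0923) or mesenchyme 3 (0.0794), at differences of -1.82 to -2.31.

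Epha3, Epha4 and Epha7 had high signals on mesenchyme 2 and 3 and lower ones on mesenchyme 1. Epha3, a receptor that binds ephrin-A5 with high affinity, read 3986, 7883 and 3305 on epithelium 1, 2 and 5 and 5617, 17354 and 19427 on mesenchyme 1, 2 and 3. Only mesenchyme 1 overlapped with the epithelial arrays, through epithelium 2. With all arrays the difference was -1.39 ± 0.545 (2.63-fold, adjusted p = 0.217), and without mesenchyme 1 it was -1.96 ± 0.371 (3.89-fold, adjusted p = 0.0130). With median centring of those 5 arrays Epha3 was not called (-1.95, adjusted p = 0.089). The second bright probe set of Epha3, at 781 to 1252 in epithelium and at 1215, 5525 and 8752 in mesenchyme 1, 2 and 3, was called too without mesenchyme 1 (-2.86, adjusted p = 0.00281). The dimmest of its 3 probe sets above the filter was not (-1.74, adjusted p = 0.0674).

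Epha4, a receptor that binds ligands of both classes, read 1848, 3252 and 1414 on epithelium 1, 2 and 5 and 1367, 9192 and 14211 on mesenchyme 1, 2 and 3. Mesenchyme 1 lay below every epithelial array, and mesenchyme 2 and 3 lay above all of them. The difference was -1.46 ± 0.844 with all arrays (adjusted p = 0.396) and -2.49 ± 0.399, or 5.64-fold, without mesenchyme 1 (adjusted p = 0.00674). All 4 probe sets of Epha4 above the filter had negative differences, from -0.61 to -1.46 with all arrays. The 3 other than the brightest were not called without mesenchyme 1 either (adjusted p = 0.0909, 0.0755 and 0.0875).

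Epha7, a receptor of the early nervous system with ephrin-A5 among its ligands, read 4297, 4319 and 4271 on epithelium 1, 2 and 5 and 648, 7984 and 9210 on mesenchyme 1, 2 and 3. The epithelial values were nearly equal, mesenchyme 2 and 3 lay above them and mesenchyme 1 far below. The direction turned with that array, from 0.24 ± 0.943 with it (adjusted p = 0.910) to -0.99 ± 0.202, or 1.99-fold higher in mesenchyme, without it (adjusted p = 0.0172). On the other 3 probe sets of Epha7 the difference was negative in both sets of arrays, from -0.36 to -1.03 with all arrays. None of these 3 was called without mesenchyme 1 (adjusted p = 0.315, 0.115 and 0.312 in a fit of all probe sets), and 1 still overlapped between the layers. Without mesenchyme 1, Epha7 was not called from averaged probe sets (-1.38, adjusted p = 0.0999) or with median centring (-1.03, adjusted p = 0.119).

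**Figure D2:**
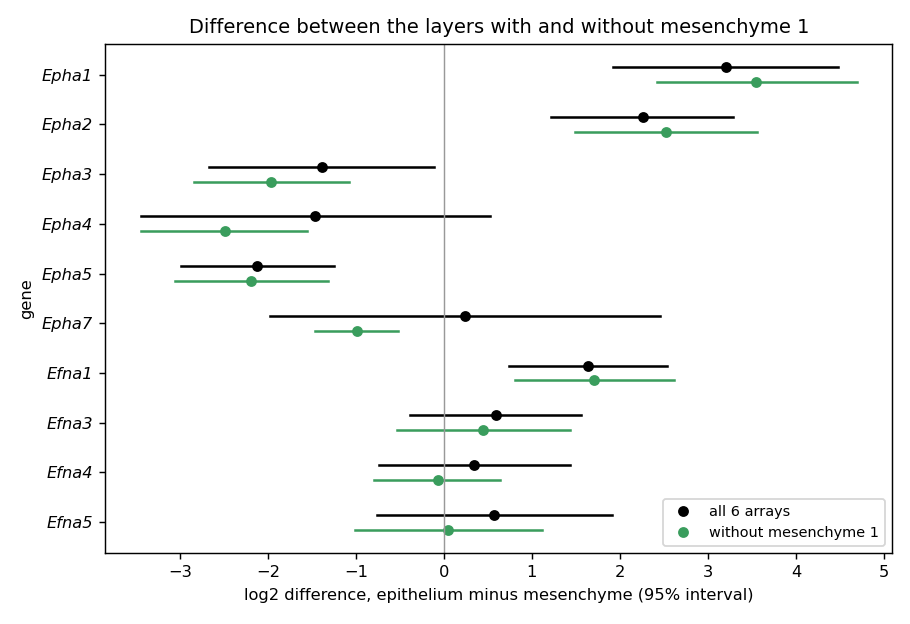
Log2 difference, epithelium minus mesenchyme, of each member with its 95% interval from limma, with all 6 arrays in black and without mesenchyme 1 in green. The intervals of Epha4 and Epha7 are wide with all arrays, from -3.44 to 0.52 and from -1.98 to 2.45, and narrower without mesenchyme 1.

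The 4 receptors Epha3, Epha4, Epha5 and Epha7 have 15 probe sets above the filter. On 14 of them mesenchyme 1 read below both other mesenchymal arrays, and on 6 it was the lowest of all arrays. Among all genes tested mesenchyme 1 was the lowest of its layer for 55.4%. The shares of all probe sets for these 2 counts are not given here. Without mesenchyme 1, all 15 had a negative difference, 14 did not overlap between the layers and 6 were called, against 2 without overlap and 1 called with all arrays. Of all 27022 probe sets above the filter, 5.28% were called higher in mesenchyme without mesenchyme 1 and 2.42% with all arrays. Among all genes, all mesenchymal arrays lay above all epithelial ones for 13.2% with all arrays and for 22.3% without mesenchyme 1, and in either direction the layers did not overlap for 28.8% and 45.4%. Probe sets of 1 gene share its transcripts and are not independent measurements. Relative to the mean of mesenchyme 2 and 3, the log2 level of mesenchyme 1 differed by -1.71 for Epha3, -3.05 for Epha4, -3.69 for Epha7, 0.00 for Epha5, 1.03 for Epha1 and 0.62 for Epha2.

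**Figure D3:**
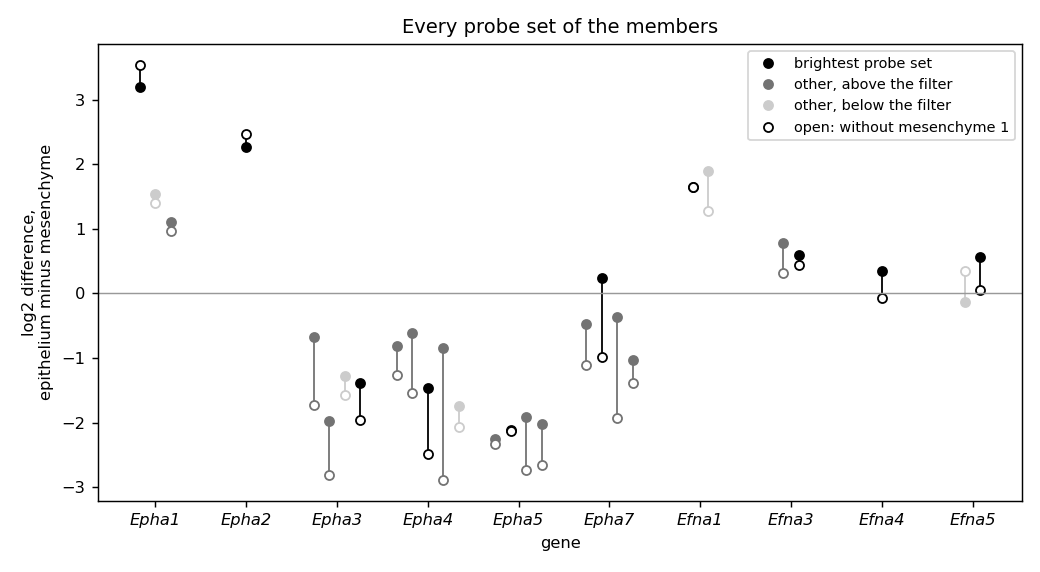
Log2 difference, epithelium minus mesenchyme, of every probe set of the members, with all 6 arrays (filled) and without mesenchyme 1 (open), both from values normalized on all 6 arrays. The brightest probe set is black, others above the filter are dark grey and those below it light grey, and without mesenchyme 1 every probe set of Epha3, Epha4, Epha5 and Epha7 lies below 0.

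Markers of several other cell types were higher on the mesenchymal arrays. The summed signal of 5 neuronal markers was 24336, 34269 and 28868 on mesenchyme 1, 2 and 3 and 502 to 980 on the epithelial arrays. Of these 5 markers, 4 were called higher in mesenchyme. For 6 endothelial markers, of which 5 were tested and 3 called, the sums were 13873, 10608 and 12537 in mesenchyme 1, 2 and 3 and 508 to 1688 in epithelium. All 4 skeletal muscle markers were called higher in mesenchyme, with sums of 89902 for mesenchyme 1, 21356 for mesenchyme 2, 11331 for mesenchyme 3 and 513 to 906 in epithelium. Within its layer mesenchyme 1 had the lowest neuronal sum and the highest endothelial and skeletal muscle sums. The single markers were divided. Of the neuronal ones Prph and Elavl4 were lowest on mesenchyme 1, but Stmn2 and Tubb3 were highest there. Of the endothelial ones Cdh5 and Tek were highest there, but Pecam1, Emcn and Tie1 were lowest. The median log2 difference of mesenchyme 1 from the mean of mesenchyme 2 and 3 was 0.07 for neuronal, -0.13 for endothelial and 1.59 for skeletal muscle markers. On mesenchyme 1 Epha3, Epha4 and Epha7 were the lowest of the layer. Of 5 smooth muscle markers 2 were called higher in mesenchyme, with sums of 23039 to 51792 there and 4824 to 10730 in epithelium. None of 4 macrophage markers was called with all arrays and 1 was without mesenchyme 1, with sums of 6604 to 32673 in mesenchyme and 2191 to 5696 in epithelium. The glial sums overlapped between the layers, at 8491 to 17749 in mesenchyme and 17205 to 24706 in epithelium. Erbb3, which epithelium also expresses, made up most of the signal. Of the 5 glial markers, Fabp7 (-5.09) and S100b (-2.89) were called higher in mesenchyme with all arrays. In that limma fit Sox10 (0.14, adjusted p = 0.886), Foxd3 (-1.96, 0.171) and Erbb3 (1.2, 0.0513) were not called. Without mesenchyme 1 Erbb3 was called higher in epithelium (1.37, adjusted p = 0.0118). The part of these cell types in the levels of Epha3, Epha4, Epha5 and Epha7 was not tested.

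The ligands Efna3, Efna4 and Efna5 did not pass the test with or without mesenchyme 1. Efna3, a ligand of class A receptors, read 1610, 1056 and 2665 on epithelium 1, 2 and 5 and 898, 1373 and 1070 on mesenchyme 1, 2 and 3. The layers overlapped through epithelium 2, which read 1056. The difference was 0.59 ± 0.414 (95% interval -0.38 to 1.56, adjusted p = 0.483), and 0.45 without mesenchyme 1 (-0.53 to 1.43). Its second probe set differed by 0.78 with all arrays and by 0.31 without mesenchyme 1.

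Efna4, another such ligand, was read from 1 probe set at 370, 343 and 397 on epithelium 1, 2 and 5 and 155, 435 and 347 on mesenchyme 1, 2 and 3. Apart from mesenchyme 1, which was the lowest, the arrays lay within a narrow range. The difference was 0.34 ± 0.461 (95% interval -0.74 to 1.43), and -0.07 without mesenchyme 1 (-0.79 to 0.64). Efna5, a ligand known for the repulsion of retinal axons, read 6633, 2481 and 6508 on epithelium 1, 2 and 5 and 1537, 4478 and 4681 on mesenchyme 1, 2 and 3. Each layer held 1 low array, epithelium 2 and mesenchyme 1, and the layers overlapped. The difference of Efna5 was 0.57 ± 0.569 (95% interval -0.76 to 1.91), and 0.05 without mesenchyme 1 (-1.01 to 1.11). These intervals do not show that the ligands were equal in the layers.

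The epithelial arrays also differed among themselves. Epithelium 2 was the highest of the 3 for Epha2, Epha3, Epha4, Epha5, Epha7 and Efna1 and the lowest for Epha1, Efna3, Efna4 and Efna5, so it was at an end of the range for 10 of 10 members, as it was for 79.5% of all genes tested. It also had the highest summed signal of mesenchymal markers in its layer (50554, against 32428 and 43630) and of endothelial markers (1688, against 508 and 723), whose part in these levels was not tested. Mesenchyme 1 was the lowest of its layer for 6 of 10 members, against 55.4% of all genes tested.

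Of the class A genes outside the members, 4 had a probe set, and none was called. Efna2, a ligand, read 2544, 1660 and 2919 on epithelium 1, 2 and 5 and 845, 4325 and 6122 on mesenchyme 1, 2 and 3. As for Epha4, mesenchyme 1 lay below the epithelial arrays and mesenchyme 2 and 3 above them. Its difference was -0.29 ± 0.718 with all arrays (adjusted p = 0.853) and -1.17 ± 0.326 without mesenchyme 1 (adjusted p = 0.0584), and a second, dimmer probe set differed by 0.44 and -0.03. Epha8 was dim, at 26.0 to 244 over all arrays, and differed by 0.34 ± 0.812 with all arrays and by -0.31 ± 0.698 without mesenchyme 1, a change of direction (adjusted p = 0.847 and 0.843). Epha6 (38.4 to 106) and Epha10 (15.6 to 41.2) were below the filter and were not tested.

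The genes whose profile over the 6 arrays was most like that of Epha1, by Pearson correlation of normalized log2 values, were Mta3 (0.9992), Irx2 (0.9964), Grb7 (0.9963) and Gm38910 (0.9950). Most like Epha5 were Ctla2a (0.9972), Rufy3 (0.9964), Mmrn2 (0.9964) and Pappa2 (0.9944). These are descriptions over 6 arrays in 2 layers, and 231 genes for Epha1 and 234 for Epha5 had a correlation over 0.95. Without mesenchyme 1 the same pairs correlated at 0.9961 to 0.9992 for Epha1 and 0.9939 to 0.9975 for Epha5. Irx2, Grb7, Ctla2a, Rufy3 and Mmrn2 were themselves called with all arrays, with differences of 3.82, 2.68, -3.13, -4.26 and -5.06, while Mta3 (0.92), Gm38910 (1.73) and Pappa2 (-1.47) were not. Without mesenchyme 1 Gm38910 (1.86, adjusted p = 0.0209) and Pappa2 (-1.53, adjusted p = 0.0316) were called as well, and Mta3 was not (0.37, adjusted p = 0.526). Each fit chose its brightest probe set anew, so this value of Mta3 may come from a probe set other than the one correlated above.

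Among 38 effectors and regulators of Eph signalling, 35 were tested, 0 were called higher in epithelium and 3 higher in mesenchyme, where 1.95% and 4.03% of all genes were called (limma). At an unadjusted p under 0.05 there were 7 of the 35, near the 19.5% of all genes. Arhgef15, an exchange factor that acts below Eph receptors, read 25.1, 41.3 and 57.9 on epithelium 1, 2 and 5 and 945, 1121 and 1073 on mesenchyme 1, 2 and 3. Adam12, a membrane metalloprotease, read 93.7, 85.6 and 273 on the epithelial arrays and 4052, 4321 and 2825 on the mesenchymal ones. Ptpro, a receptor phosphatase that acts on Eph receptors in chick, read 369, 242 and 198 against 5211, 2623 and 1591. For all 3 genes the layers lay far apart and mesenchyme 1 stood on the side of its own layer. The differences were -4.25 ± 0.408 for Arhgef15 (19.0-fold, adjusted p = 0.00394), -4.64 ± 0.485 for Adam12 (25.0-fold, adjusted p = 0.00455) and -3.34 ± 0.500 for Ptpro (10.1-fold, adjusted p = 0.0122). Without mesenchyme 1 they were -4.38 for Arhgef15, -4.67 for Adam12 and -2.98 for Ptpro, and all 3 remained called.

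Without mesenchyme 1, 8 of the 35 were called, 1 higher in epithelium and 7 higher in mesenchyme, where 6.37% and 8.17% of all genes were called. The one higher in epithelium was Vav2, an exchange factor that acts below EphA receptors, at 3162, 5027 and 3512 on epithelium 1, 2 and 5 and 2816, 1445 and 1078 on mesenchyme 1, 2 and 3 (1.63 ± 0.302, adjusted p = 0.0118, and 1.21 with all arrays, adjusted p = 0.166). Those added in mesenchyme were the Src family kinase Fyn (-1.48), the neurotrophin receptor Ngfr (-2.83) and the GDNF receptor Ret (-1.25), both of which partner with ephrin-A proteins in axons, and the FGF receptor Fgfr1 (-1.35), with adjusted p between 0.00783 and 0.0330. With all arrays these differences were -1.16 for Fyn, -2.23 for Ngfr, -0.50 for Ret and -1.11 for Fgfr1, with adjusted p of 0.104, 0.0997, 0.692 and 0.109. Ngfr was dim, at 28.5 to 53.4 in epithelium and at 93.1, 379 and 333 in mesenchyme 1, 2 and 3. The median difference of the list was -0.11 with all arrays and -0.10 without mesenchyme 1, against 0.12 and 0.02 for all genes, and 24 of the 35 differed by less than 1 log2 unit without mesenchyme 1. The kinase Src, the adaptors Nck1, Nck2 and Crk, the GTPases Rhoa, Rac1 and Cdc42 and the ephrin-cleaving protease Adam10 were called in neither fit.

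**Figure D4:**
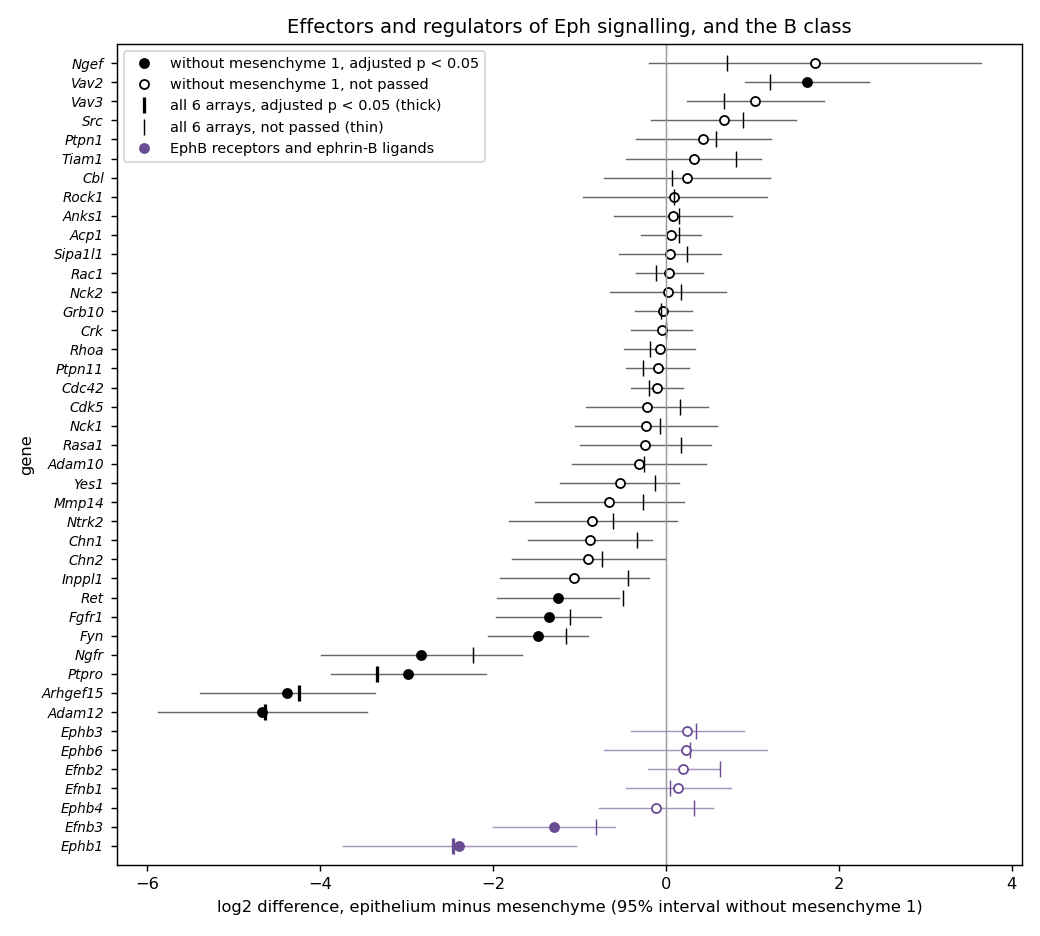
Log2 difference, epithelium minus mesenchyme, of the 35 tested effectors and regulators (black) and of 7 EphB receptors and ephrin-B ligands (purple), as circles with 95% intervals without mesenchyme 1 (filled when called) and as bars with all 6 arrays (thick when called). Adam12, Arhgef15 and Ptpro lie farthest to the mesenchymal side, and Vav2 is the called gene on the epithelial side.

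In class B, 1 of 7 tested genes was called with all arrays, the receptor Ephb1, at 177, 703 and 330 on epithelium 1, 2 and 5 and 2397, 2348 and 1375 on mesenchyme 1, 2 and 3 (-2.46 ± 0.535, adjusted p = 0.0418), against 5.98% of all genes. Without mesenchyme 1 Ephb1 (-2.39, adjusted p = 0.0333) and the ligand Efnb3 (-1.29, adjusted p = 0.0289, and -0.81 with all arrays, adjusted p = 0.393) were called, against 14.5% of all genes, and the other 5 genes were called in neither fit.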

How the data were processed

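The authors deposited linear probe set intensities. They were made with GCOS, per the submitters' processing notes (its version is not given in the sources used here). Each array's trimmed mean of these deposited intensities was 1499 or 1500, so a common scaling had been applied. No detection calls were used.

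Of 45101 probe sets, 64 controls were left out, and 34945 of the others name 1 gene, 932 several and 9160 none. Symbols came from the platform annotation, and 34741 of the single-gene probe sets matched RefSeq (GRCm38.p6) by gene identifier, which changed 0 symbols. Values were log2(intensity + 16), quantile normalized. A probe set's mean had to exceed the 40th percentile, and genes were read from their probe set of highest mean, which left 13717 genes (13587 when every step was repeated without mesenchyme 1). The test was limma's moderated one (version 3.58.1, R 4.3.3) with an intensity trend and without covariates, and p-values were adjusted over all genes by Benjamini-Hochberg. Without mesenchyme 1 that layer has 2 arrays. The code was tested on simulated data. Of simulated differences of 1 log2 unit, 6% were recovered in either fit. Of those of 2 units, 34% were recovered with all arrays and 70% without mesenchyme 1, so a gene not called may still differ.

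The members, the lists and the treatment of mesenchyme 1 were chosen with earlier results of these data known. Named are all members, other class A genes, effectors (up to 5 per direction in each fit) and class B genes past the threshold, and the 4 genes most like the member with the largest difference in each direction. The called effectors Ret and Fgfr1 and the 8 uncalled effectors were named after their values were seen. Alternatives were other offsets, normalizations, filters, probe set rules and variance priors, a replicate block, and leaving out each array. The labels do not tie arrays of the same number together, so the numbers were not treated as pairs. Deviations from the layer means of arrays with the same number correlated at -0.05 and -0.02 across genes. With 3 arrays per layer, and mesenchyme 1 weighing on the mean of its layer, these values cannot show whether the arrays were paired.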

Additional observations from a re-analysis of the deposited data

How the results depend on the processing

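The calls of the members rested on nearly every array. Leaving out 1 array at a time gave 142 to 1975 called genes in all, 0 to 3 members called higher in epithelium, 0 to 4 higher in mesenchyme, 2 to 8 called effectors and 0 to 2 called class B genes, each time with the most calls without mesenchyme 1. The number of members called higher in epithelium was 1 with an offset of 1, with the filter at the 60th percentile and with probe sets of the unique kind alone, and the number higher in mesenchyme was 0 with averaged probe sets. Averaged probe sets gave 5 called effectors. No class B gene was called without the filter, without a variance trend or with the replicate number as a random block (in limma, at adjusted p 0.0577 for Ephb1 without the filter). The replicate block changed no call of a member and gave 756 called genes in all, against 820 without it, and the arrays share only the number.

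Alternatives combined with leaving out mesenchyme 1 were chosen after the data were seen. Called genes in all were 1956 with averaged probe sets, 1942 without normalization, 1613 with median centring and 1882 without the filter. Members higher in mesenchyme were then 3, 4, 2 and 4, called effectors 8, 8, 6 and 8, and class B genes 2, 2, 1 and 1. Epha7 changed direction without mesenchyme 1 (-0.99) and with averaged probe sets (-0.40), and in the combined settings it stood at -1.38, -1, -1.03 and -0.99. Efna4 changed direction without mesenchyme 1 (-0.07) and combined (-0.07, -0.20, -0.23 and -0.07), with -0.07 to 0.62 over the single arrays left out, as against -0.99 to 0.90 for Epha7. Efna5 changed direction without that array and normalization (-0.01) or with median centring (-0.04). The other 7 members kept their direction in all 20 alternatives in which they had a value, the log2 difference of Epha3 between -2.19 and -1.08, of Epha4 between -2.51 and -0.80 and of Epha5 between -2.51 and -1.82. Apart from the change of Epha1 to its other probe set, the causes were not tested. The filter at the 60th percentile left no value for Epha1, and probe sets of the unique kind none for Epha2 and Efna4.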
